A study of Mus musculus with 16 samples.

Results

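Teeth form where WNT signals reach the oral epithelium and the mesenchyme beneath it, and 10 genes of this pathway or of the control of tooth number were followed in molar germs of *Rsk2-/Y* and wild-type (WT) mouse embryos. They are the co-receptor genes *Lrp5* and *Lrp6*, the related receptor gene *Lrp4*, the destruction complex genes *Apc* and *Axin2*, the transducer *Ctnnb1*, the nuclear partners *Lef1* and *Tcf7*, the feedback gene *Nkd1* and the mesenchymal gene *Osr2*. The genes were chosen by name, and each was read from a probe set that the annotation pairs with its symbol alone. Of the 10 genes, 9 had exactly 1 such probe set, and *Tcf7* was not analysed here. These 9 stand among 17215 genes tested on the whole array.

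Lower molar germs of E14.5 embryos, at the cap stage, gave the RNA for 16 arrays, with 8 pools from *Rsk2-/Y* and 8 from WT embryos. *Rsk2-/Y* males carry a constitutive knockout of the X-linked kinase gene *Rps6ka3* (*Rsk2*) and keep the other *Rsk* genes, and the study's WT controls were littermate males. All embryos had the C57Bl6 background, and each pool held 4 tooth germs. The sample names fall into 2 series, AZN and ABH, which the labels do not explain, with 4 pools of each genotype in each. *Rsk2-/Y* replicates 1 to 4 and WT replicates 5 to 8 belong to AZN, and the others to ABH. Which pools shared a litter is not stated, so the p-values measure only the spread between these pools.

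In canonical WNT signalling, a WNT ligand brings a Frizzled receptor together with LRP5 or LRP6, which stops the destruction complex of AXIN, APC and their kinases from marking beta-catenin for degradation. Beta-catenin, the product of *Ctnnb1*, then enters the nucleus and works with the DNA-binding factors LEF1 and TCF7. *Axin2* and *Nkd1* are targets of the pathway whose products restrain it. LRP4 binds the WNT and BMP antagonist Sostdc1 (also called Wise), and mice without *Lrp4* form supernumerary teeth. *Osr2* encodes a zinc finger factor of the dental mesenchyme that opposes *Bmp4*, and mice without it form extra teeth lingual to the molars. Mice without *Lef1* arrest tooth development at the bud stage.

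Genomic sequence upstream of the transcription start is shown for *Axin2*, *Nkd1* and *Lef1*, the 3 WNT target or effector genes that moved together from pool to pool, and for *Ctnnb1*, which did not follow them closely. The sequences are RefSeq's on GRCm38.p6, plus strand, the last 100 bases before the first annotated start, with CpG dinucleotides in capitals.
Axin2 chr11:108920249-108920348: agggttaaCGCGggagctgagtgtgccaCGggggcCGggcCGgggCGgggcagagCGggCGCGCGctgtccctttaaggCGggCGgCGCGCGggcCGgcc
Nkd1 chr8:88527533-88527632: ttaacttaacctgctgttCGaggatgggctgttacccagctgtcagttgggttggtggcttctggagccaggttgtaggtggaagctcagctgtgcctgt
Lef1 chr3:131110197-131110296: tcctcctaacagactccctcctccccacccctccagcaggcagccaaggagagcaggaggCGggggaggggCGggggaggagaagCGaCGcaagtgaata
Ctnnb1 chr9:120933300-120933399: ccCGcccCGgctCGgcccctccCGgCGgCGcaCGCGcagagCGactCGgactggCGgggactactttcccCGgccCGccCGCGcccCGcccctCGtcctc

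The stretches differ in CpG content. In the 250 bases before the start, *Axin2* had 24 CpG and 69.2% G or C, *Lef1* 11 CpG and 66.4%, and *Nkd1* 6 CpG and 58.4%, while *Ctnnb1* had 35 CpG and 74.8%. The median over 32851 windows of this length was 6 CpG and 52.4% G or C. TCF/LEF binding letters were searched on both strands as CTTTG followed by 2 letters that are each A or T. The table held 10 windows for 5 of the genes, *Lef1*, *Axin2*, *Nkd1*, *Ctnnb1* and *Tcf7*, and 1 of the 10 held a match, against 14.8% of all windows. That match lay 147 bases before the most downstream of the 4 *Lef1* starts, on the minus strand, and is given in capitals in the plus-strand stretch around it. A match is a description of these letters and not a mapped site.
Lef1 chr3:131156117-131156183: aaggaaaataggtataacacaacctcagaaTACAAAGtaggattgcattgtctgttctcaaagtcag

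Values are log2 signals as the authors deposited them, and a level of 1 probe set cannot be set against that of another. The 16 arrays had median signals of 6.74 to 6.94 and correlated with each other at 0.976 to 0.997. *Rps6ka3* itself had a signal of 9.74 to 10.4 in *Rsk2-/Y* and of 9.61 to 10.22 in WT, and its probe set, which is spread along the transcript, does not check the deletion of 1 exon. The mean of 15 dental mesenchyme markers was 10.09 to 10.66 in *Rsk2-/Y* and 10.28 to 10.58 in WT. *Rsk2-/Y* minus WT lay above 0 for 7 of the 15 and below 0 for 8 (median -0.0135), with none called. Among them, *Msx1* averaged 10.48 ± 0.26 in *Rsk2-/Y* and 10.43 ± 0.17 in WT (SD, n = 8 each). *Barx1* averaged 11.26 ± 0.16 in *Rsk2-/Y* and 11.28 ± 0.11 in WT. The mean of 19 dental epithelium markers was 9.54 to 9.99 in *Rsk2-/Y* and 9.75 to 10.29 in WT, and *Rsk2-/Y* minus WT lay below 0 for 19 of the 19 (median -0.22), with none called. The mean of 22 skeletal muscle markers was 7.29 to 9.71 in *Rsk2-/Y* and 7.35 to 8.79 in WT, with 21 of the 22 above 0 (median 0.56) and none called. In tissue pools, fewer cells of a type and less RNA per cell cannot be told apart.

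The *Rsk2-/Y* pools overlapped the WT pools for 9 of 9 genes, with differences from -0.056 (*Osr2*) to 0.030 (*Lrp6*) on the log2 scale. Nearly the whole array overlapped in this way, with 0.0174% of all genes (3 of 17215) free of overlap. None of the 9 passed the study's thresholds of an adjusted p under 0.1 and a fold change above 1.2 in limma. That fit called 0% of all 17215 genes. The paper, with its own software, lists genes that passed these thresholds, with *Sfrp5* and *Wnt11* lower in *Rsk2-/Y*. The source of this difference between the analyses was not tested. The paper also reports that qRT-PCR on *Rsk2-/Y* and WT molars did not reproduce its array results for a selection of genes. Its *Rsk2* knock-down in cultured molar germs lowered *Eaf2* and raised *Rdh1*, the directions of its array list. At an unadjusted p under 0.05, 3.00% of all genes were lower and 0.993% higher in *Rsk2-/Y*, and none of the 9 was among them. The difference was below 0 for 7 of the 9, against 60.3% of all genes.

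**Figure D1:**
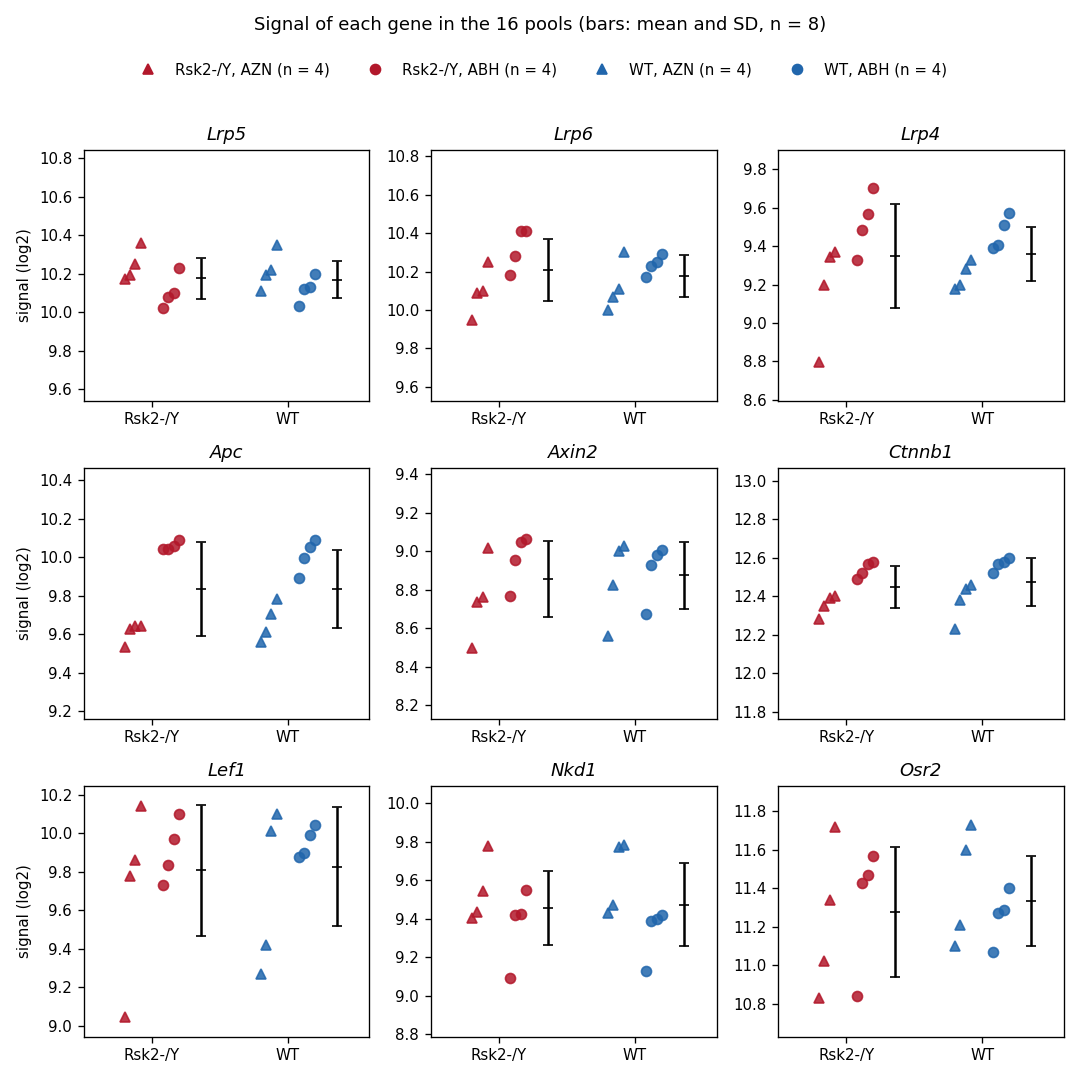
Log2 signal (vertical axis, the same span of 1.3 in each panel) of the 9 genes in the 16 pools, *Rsk2-/Y* left of WT, with triangles for AZN and circles for ABH pools and bars for mean and SD over 8 pools. The genotypes overlap in all 9 panels, and *Apc* and *Ctnnb1* separate by series within each genotype.

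*Lrp5* and *Lrp6* encode the co-receptors that carry the WNT signal across the membrane. The *Lrp5* signal had a lowest value of 10.02, a median of 10.18 and a highest of 10.36 in *Rsk2-/Y*, against 10.03, 10.16 and 10.35 in WT. *Lrp6* had 9.95, 10.22 and 10.41 in *Rsk2-/Y*, against 10 (lowest), 10.2 (median) and 10.3 (highest) in WT. The lowest and highest pools of the genotypes lay close together for both genes. *Lrp5* averaged 10.18 ± 0.11 in *Rsk2-/Y* and 10.17 ± 0.094 in WT, a difference of 0.0084 (standard error 0.055), and *Lrp6* averaged 10.21 ± 0.16 and 10.18 ± 0.11, a difference of 0.030 (standard error 0.068). *Lrp5* and *Lrp6* were the only members with a difference above 0, and both intervals included 0.

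*Lrp4*, the receptor gene whose loss adds teeth, had the widest spread of the 3 *Lrp* genes. Its signal was 8.79 at the lowest, 9.36 at the median and 9.70 at the highest in *Rsk2-/Y*, and 9.18, 9.36 and 9.57 in WT. *Rsk2-/Y* replicate 3 (AZN) had the lowest value of all 16 pools and *Rsk2-/Y* replicate 5 (ABH) the highest. The mean was 9.35 ± 0.27 in *Rsk2-/Y* and 9.36 ± 0.14 in WT, a difference of -0.010 (standard error 0.10, 95% interval -0.22 to 0.20).

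*Apc* encodes the scaffold of the destruction complex. Its signal ran from 9.53 over a median of 9.84 to 10.09 in *Rsk2-/Y*, and from 9.56 over 9.84 to 10.09 in WT. The means were 9.83 ± 0.24 and 9.83 ± 0.20, and the difference of -0.0021 (standard error 0.10) was the smallest of the 9. Each genotype split into a low and a high set of 4 pools by series.

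*Ctnnb1*, which encodes beta-catenin, spanned 0.37 over all 16 pools. Its signal was 12.28, 12.44 and 12.58 (lowest, median, highest) in *Rsk2-/Y*, and 12.23, 12.49 and 12.6 in WT. All 8 *Rsk2-/Y* values lay inside the WT range. The difference was -0.027 (standard error 0.060, 95% interval -0.15 to 0.099).

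*Lef1*, the factor that takes beta-catenin to DNA, varied most among pools, by 1.09 over all 16. It had a lowest signal of 9.05, a median of 9.85 and a highest of 10.14 in *Rsk2-/Y*, and 9.27, 9.94 and 10.1 in WT. *Rsk2-/Y* replicate 3 and WT replicates 6 and 5 were low at 9.05, 9.27 and 9.42, and the other 13 pools were all at 9.73 or above. The mean was 9.81 ± 0.34 in *Rsk2-/Y* and 9.83 ± 0.31 in WT, a difference of -0.019 (standard error 0.15, 95% interval -0.33 to 0.29).

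*Axin2* and *Nkd1* are the feedback targets, often used to read the activity of the pathway. *Axin2* had 8.50, 8.86 and 9.07 (lowest, median, highest) in *Rsk2-/Y* and 8.56, 8.95 and 9.03 in WT. *Nkd1* had 9.10, 9.43 and 9.78 in *Rsk2-/Y* and 9.13, 9.43 and 9.78 in WT. The genotypes covered nearly the same range for both genes. *Axin2* differed by -0.018 (standard error 0.089, 95% interval -0.20 to 0.17) and *Nkd1* by -0.018 (standard error 0.095, 95% interval -0.22 to 0.18).

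*Osr2*, the mesenchymal gene whose loss adds teeth, had the largest difference of the 9, and it too was within the spread of the pools. Its signal was 10.83, 11.38 and 11.72 (lowest, median, highest) in *Rsk2-/Y* and 11.07, 11.28 and 11.73 in WT. *Rsk2-/Y* replicates 3, 5 and 2 lay at 10.83, 10.84 and 11.02, below each of the 8 WT pools, while the other 5 lay inside the WT range. The mean was 11.28 ± 0.34 in *Rsk2-/Y* and 11.33 ± 0.23 in WT, a difference of -0.056 (standard error 0.13, 95% interval -0.33 to 0.22). In the same pools the skeletal muscle marker mean was 9.71 in replicate 3, 9.32 in replicate 5 and 8.62 in replicate 2. Its highest WT value was 8.79. *Rsk2-/Y* replicate 4 had a muscle mean of 8.67 with an *Osr2* signal of 11.34, inside the WT range. The dental mesenchyme marker mean was 10.09 in replicate 3, 10.36 in replicate 5 and 10.37 in replicate 2, against 10.28 to 10.58 in WT. The part of tissue composition in the low *Osr2* values was not tested.

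Each member had an adjusted p of 0.9998 in limma over all probe sets tested. Exact two-sided permutation tests gave p from 0.64 (*Ctnnb1*) to 0.98 (*Apc*) when pools were exchanged in all 12870 ways, and from 0.39 (*Ctnnb1*) to 0.96 (*Apc*) in the 4900 ways that exchange pools within AZN and within ABH. The lowest values these tests allow are 1.55e-04 and 4.08e-04. The 95% interval lay within a 1.2-fold change in either direction for 7 of the 9 genes, against 76.8% of all genes. It reached past 1.2-fold for *Lef1* in both directions and for *Osr2* downwards, so a change of that size could not be told from none with these pools.

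**Figure D2:**
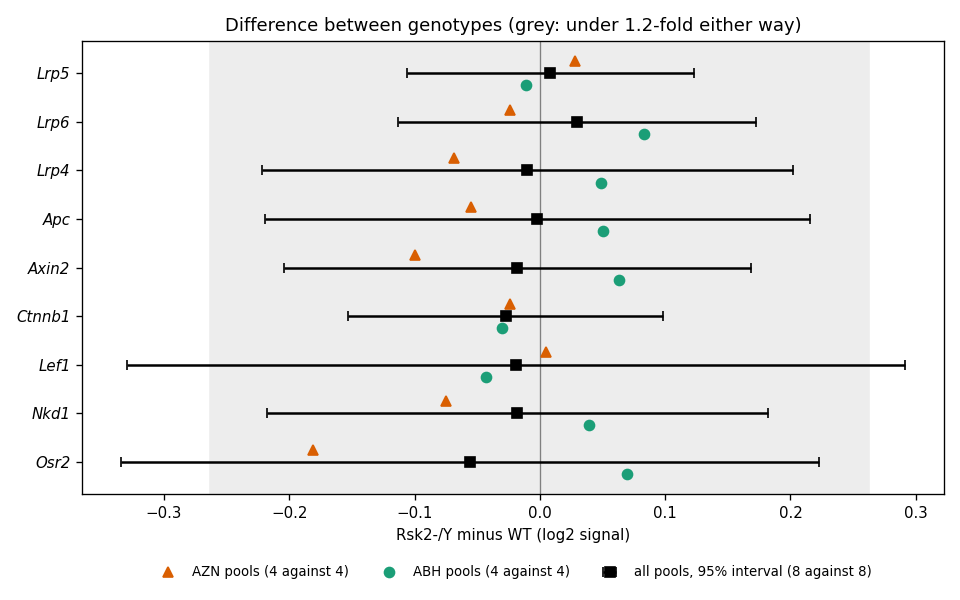
Difference *Rsk2-/Y* minus WT in log2 signal (horizontal axis) for the 9 genes, with squares and 95% intervals for 8 against 8 pools, triangles for the AZN pools and circles for the ABH pools. All 9 intervals include 0, and those of *Lef1* and *Osr2* leave the grey band of 1.2-fold.

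Within each series the differences stayed small and mostly pointed opposite ways. *Rsk2-/Y* minus WT was above 0 in 2 of 9 genes within AZN and in 6 of 9 within ABH. It had opposite signs in the 2 series for 8 of the 9 genes, *Ctnnb1* being the exception at -0.024 in AZN and -0.031 in ABH, against 50.7% of all genes. The widest gap was in *Osr2*, with -0.18 in AZN and 0.069 in ABH. The interaction of genotype and series was past an unadjusted p of 0.05 for none of the 9, against 5.76% of all genes, and past an adjusted p of 0.1 for none, against 0% (limma, lowest adjusted p among the members 0.84, *Apc*).

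The series themselves differed more than the genotypes. AZN pools had lower signals than ABH pools for 6 of the 9 genes. The median of AZN minus ABH was -0.17 over the 9, beside 0.017 over all genes. *Apc* and *Lrp4* were called lower in a limma fit with genotype as a term, at an adjusted p under 0.1 and a fold change above 1.2. That fit called 10.3% of all genes lower. None of the 9 was called higher, against 5.77% of all genes.

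*Apc* had signals of 9.53, 9.56, 9.61, 9.63, 9.64, 9.64, 9.71 and 9.78 in the AZN pools, against 9.89, 10, 10.04, 10.04, 10.05, 10.06, 10.09 and 10.09 in the ABH pools. No AZN pool reached the lowest ABH pool. The difference of AZN minus ABH was -0.39 (standard error 0.043, adjusted p = 4.41e-06, limma).

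*Ctnnb1* separated by series too, with 12.23 to 12.46 in AZN and 12.49 to 12.6 in ABH, a difference of -0.19 (standard error 0.039, adjusted p = 0.0013, limma) that stayed under 1.2-fold. *Apc* and *Ctnnb1* were the 2 of 9 members whose series did not overlap, against 8.81% of all genes. *Lrp4* averaged 9.21 ± 0.18 in AZN and 9.49 ± 0.12 in ABH (SD, n = 8 each), a difference of -0.28 (adjusted p = 0.0074, limma). Its ranges overlapped, at 8.79 to 9.37 in AZN and 9.33 to 9.70 in ABH. Without *Rsk2-/Y* replicate 3 the *Lrp4* difference was -0.22 and without *Rsk2-/Y* replicate 5 it was -0.25, both under 1.2-fold, so that *Apc* alone was called. Without *Rsk2-/Y* replicate 1, *Lef1* was called as a further member lower in AZN (-0.30, adjusted p = 0.092, limma).

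*Nkd1* went the other way, with 9.58 ± 0.17 in AZN and 9.35 ± 0.16 in ABH, a difference of 0.22 (adjusted p = 0.035, limma) under 1.2-fold. *Lrp6* was lower in AZN by 0.17 on the log2 scale (-0.17, adjusted p = 0.022, limma) and *Lrp5* differed by 0.12 (adjusted p = 0.050, limma), again under 1.2-fold. With each array centred on its median, the adjusted p became 0.11 for *Nkd1*, 0.088 for *Lrp6* and 0.22 for *Lrp5* (limma). *Axin2* and *Lef1* differed by -0.13 and -0.23 with adjusted p of 0.25 and 0.21 in limma, and *Osr2* by 0.026 (adjusted p = 0.89). What the names AZN and ABH stand for cannot be told from the labels, so the source of the series difference was not tested. Marker lists differed between the series as well. The median difference AZN minus ABH was 0.60 for skeletal muscle (9 of 22 called higher), 0.58 for erythroid cells (2 of 3 called higher) and 0.19 for osteoblasts (2 of 6 called higher). It was -0.26 for the enamel knot (6 of 14 called lower and 1 higher) and -0.12 for dental epithelium (5 of 19 called lower and 1 higher). Dental mesenchyme had a median of -0.072 (4 of 15 called lower and 1 higher). Neurons and Schwann cells had one of 0.18 (3 of 8 called higher).

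**Figure D3:**
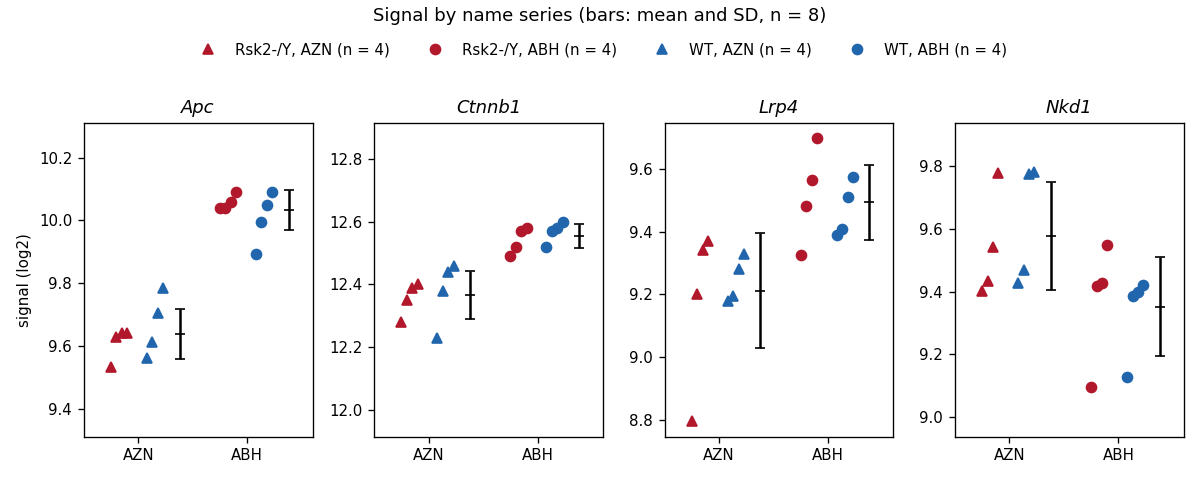
Log2 signal of *Apc*, *Ctnnb1*, *Lrp4* and *Nkd1* (vertical axis, the same span of 1 in each panel) in AZN and ABH pools, red for *Rsk2-/Y* and blue for WT, with mean and SD over 8 pools. The AZN pools of *Apc* and *Ctnnb1* lie below each ABH pool, those of *Lrp4* lie lower on average and those of *Nkd1* higher on average.

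A set of 4 members varied together from pool to pool, and the others followed it less closely or not at all. Each pool was expressed as its deviation from the mean of its own genotype and series, and 36 pairs of members were compared over the 16 pools, as a description with no test. All pairs share the same 16 pools, and so whatever tissue each pool held. *Nkd1*, *Axin2*, *Lef1* and *Osr2* formed the closest set, with Pearson's r from 0.77 (*Lef1* with *Nkd1*) to 0.95 (*Nkd1* with *Osr2*). The pair of *Nkd1* and *Osr2* had a Spearman's rho of 0.90 and an r of 0.95 without the 2 pools farthest out, and of 0.96 within AZN and 0.94 within ABH (n = 8 each). Taken on the signals themselves, with the series difference left in, r was 0.80 for *Nkd1* with *Osr2*, 0.48 for *Nkd1* with *Axin2* and 0.35 for *Nkd1* with *Lef1*. Among 11205 other genes, *Osr2* had rank 3 in likeness to *Nkd1*, and *Nkd1* had rank 5 in likeness to *Osr2*. *Lef1* had rank 609 in likeness to *Nkd1* and rank 455 in likeness to *Osr2*. In likeness to *Lef1*, *Nkd1* had rank 308 and *Osr2* rank 114. Many genes outside the set thus followed these members more closely, and the set is not particular to the members.

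*Axin2*, the feedback gene, followed *Nkd1* at 0.91 (0.91 within AZN and 0.95 within ABH), *Osr2* at 0.90 and *Lef1* at 0.87. Without the 2 pools farthest out, *Lef1* with *Axin2* kept 0.79. The upstream stretches printed above held 16 CpG for *Axin2* and 1 for *Nkd1*.

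*Lrp6* lay between this set and the rest, with an r of 0.64 with *Osr2*, 0.54 with *Nkd1*, 0.48 with *Axin2* and 0.36 with *Lef1*. It had similar values with *Lrp5* (0.65) and *Ctnnb1* (0.60). *Lrp5* itself ran from -0.13 (with *Lef1*) to 0.12 (with *Nkd1*) against the 4 genes. *Apc* lay between -0.27 (with *Nkd1*) and 0.46 (with *Ctnnb1*). *Lrp4* with *Osr2*, the 2 tooth number genes, had an r of 0.0088 over 16 pools, with 0.38 within AZN and -0.78 within ABH. *Lef1* with *Lrp4* likewise had 0.58 within AZN and -0.68 within ABH.

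**Figure D4:**
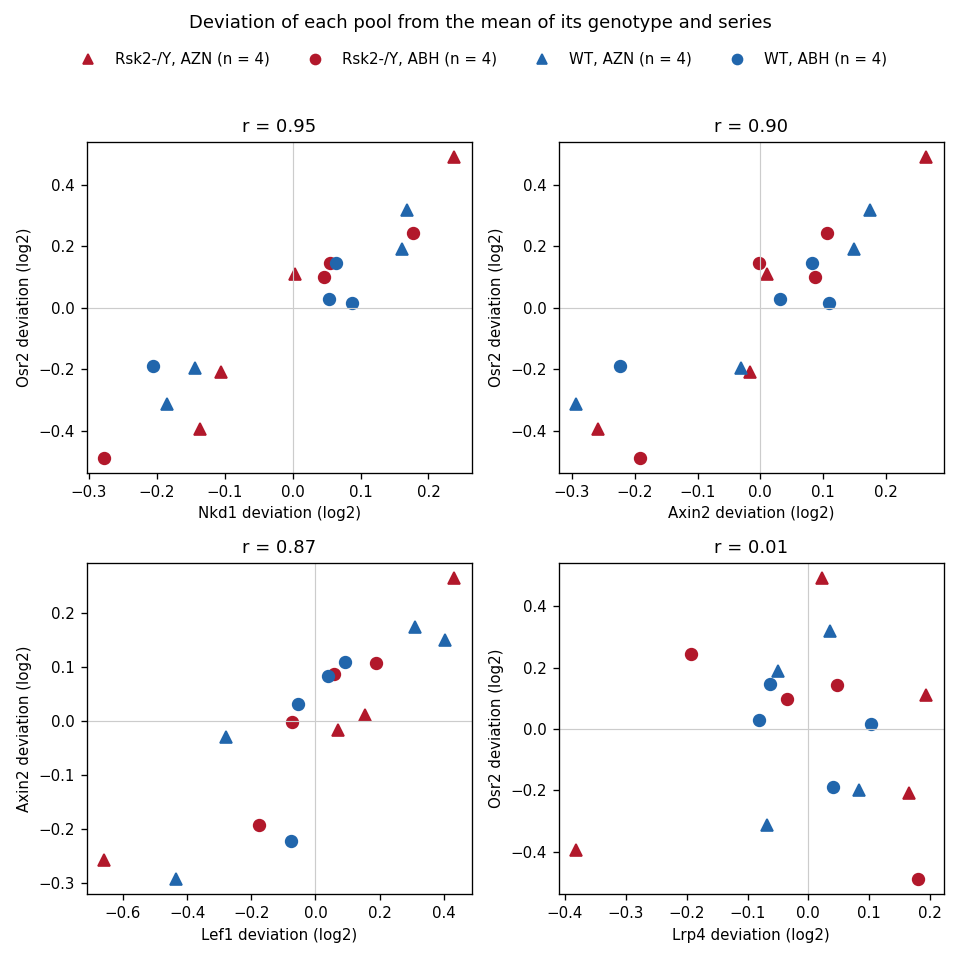
Deviation of each pool from the mean of its genotype and series in log2 signal, for 4 pairs of genes, with red for *Rsk2-/Y*, blue for WT, triangles for AZN and circles for ABH. Points of *Nkd1*, *Axin2*, *Lef1* and *Osr2* run along a line in 3 panels (r = 0.95, 0.90 and 0.87), and those of *Lrp4* with *Osr2* do not (r = 0.01).

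The same deviations were set beside the means of 5 tissue marker lists. The mean of 15 dental mesenchyme markers followed *Osr2* at 0.89, *Lef1* at 0.85, *Nkd1* at 0.82 and *Axin2* at 0.81, and each r was between 0.73 and 0.91 within either series. Without removing the group means, *Nkd1* with the mesenchyme mean had an r of 0.30. The 14 enamel knot markers followed the same genes too, at 0.78 for *Lef1* and *Axin2*, 0.66 for *Osr2* and 0.65 for *Nkd1*. Within AZN these were 0.83 for *Lef1*, 0.90 for *Axin2*, 0.75 for *Osr2* and 0.76 for *Nkd1*. Within ABH they were lower, at 0.42, 0.43, 0.44 and 0.52 in the same order. That list includes *Bmp4*, which is also a mesenchymal signal, so its mean does not read the enamel knot alone. The skeletal muscle mean went the other way, at -0.64 with *Osr2*, -0.62 with *Lef1* and *Axin2* and -0.57 with *Nkd1*, and these were -0.49 to -0.31 without *Rsk2-/Y* replicates 3 and 5, the 2 pools farthest out in muscle. *Ctnnb1* followed the enamel knot mean at 0.80, or 0.48 without WT replicates 6 and 8, and the 19 epithelium markers at 0.76, or 0.40 without *Rsk2-/Y* replicate 3 and WT replicate 6. *Lrp4* followed the epithelium mean at 0.63, or 0.38 without the same pair of pools. These relations of *Ctnnb1* and *Lrp4* were high within AZN and not within ABH. *Ctnnb1* had 0.90 in AZN and 0.24 in ABH with the enamel knot mean, and 0.92 in AZN and -0.36 in ABH with the epithelium mean. *Lrp4* with the epithelium mean had 0.78 in AZN and -0.014 in ABH. *Apc* followed the epithelium mean at 0.56, or 0.63 without *Rsk2-/Y* replicate 3 and WT replicate 6. It had 0.64 in AZN and 0.43 in ABH. With the osteoblast mean, *Lrp4* had -0.62 and *Lrp5* 0.58, or -0.18 and 0.41 without *Rsk2-/Y* replicates 3 and 4. The other members lay between -0.38 (*Lef1*) and 0.098 (*Lrp6*) with the osteoblast mean. *Rsk2-/Y* replicate 3 had the highest muscle mean (9.71) and the lowest mesenchyme (10.09) and epithelium means (9.54), beside the lowest *Lef1*, *Axin2*, *Lrp4* and *Osr2* signals. The part of tissue composition in these relations was not tested.

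**Figure D5:**
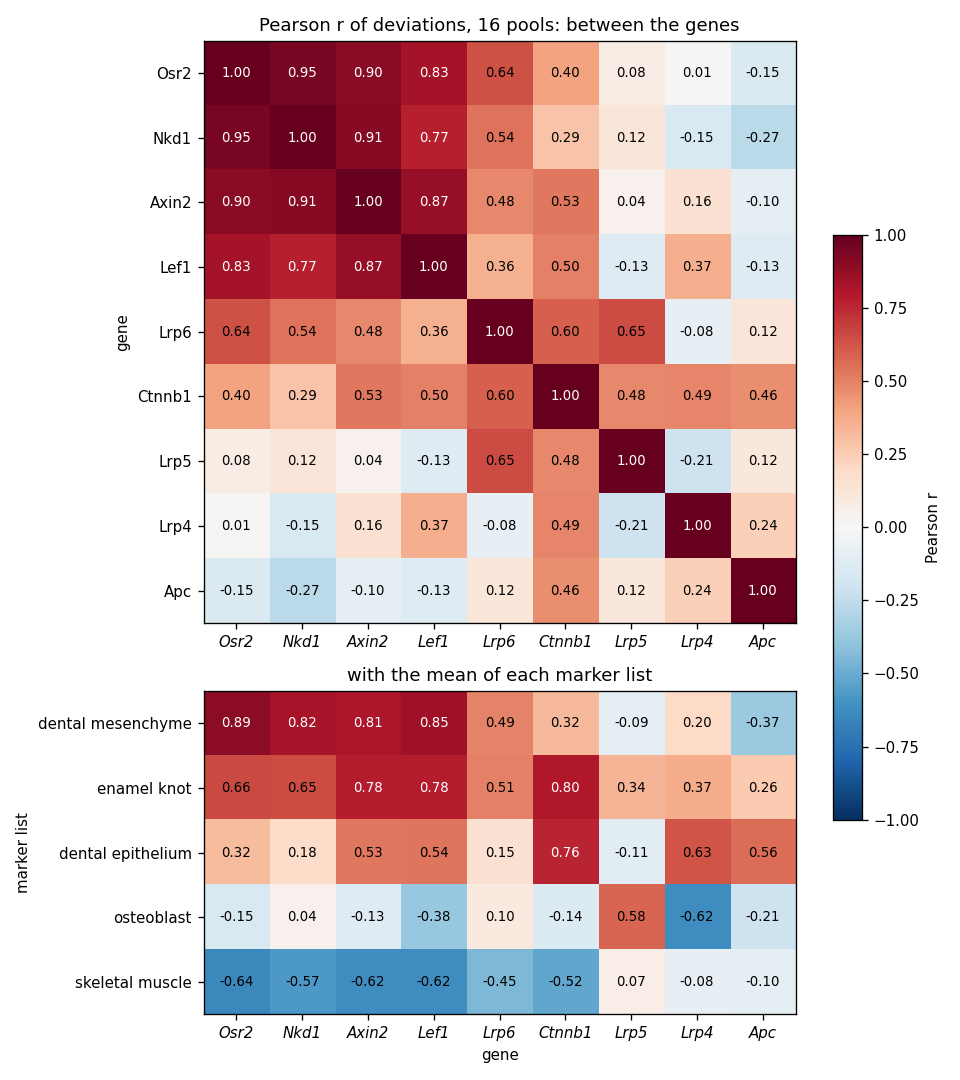
Pearson's r of pool deviations (colour and number, 16 pools) between the 9 genes and, in the lower panel, with the mean of each marker list. *Osr2*, *Nkd1*, *Axin2* and *Lef1* form a block from 0.77 to 0.95, follow the dental mesenchyme mean at 0.81 to 0.89 and oppose the skeletal muscle mean at -0.64 to -0.57.

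Genes most like a member were named by the highest r of the same deviations, among the genes with a mean signal above 7, again as a description. *Lef1* was closest to *Ror2* (0.96), which encodes a receptor for WNT5A, then to *Etv5* (0.95), which encodes an ETS factor induced by FGF signals, and *Dlx2* (0.94), a homeobox gene of the dental mesenchyme. Within AZN and ABH these were 0.98 and 0.80 for *Ror2*, 0.99 and 0.35 for *Etv5*, and 0.97 and 0.67 for *Dlx2*. *Osr2* was closest to *Bmp4* (0.96), the mesenchymal signal that it opposes in the mouse tooth, then to *Cdh12* (0.96) and *Stk4* (0.95), which encode a cadherin and a Hippo pathway kinase. The 3 values were 0.93 or more within either series, but on the signals themselves, with the group means left in, they were 0.35 for *Bmp4*, 0.37 for *Cdh12* and 0.51 for *Stk4*. *Axin2* was closest to *Rel*, an NF-kappaB subunit gene (0.94), *Leprotl1* (0.94) and *Pxk* (0.93). *Lrp4* was closest to *Susd4* (0.92), *Nell2* (0.92) and *Ccar1* (0.91).

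Further listed genes of the pathway and of tooth number showed no called change either. WNT ligands and most secreted antagonists were not among them. Of 30 other WNT transducers, 9 were above 0 and 21 below, with a median difference of -0.035 beside -0.016 over all genes, and none passed an unadjusted p of 0.05. *Porcn*, the acyltransferase gene needed for WNT secretion, had the largest at -0.10, followed by the corepressor gene *Tle3* at -0.10. Of 18 receptors and co-receptors, 7 were above 0 and 11 below (median -0.031). *Fzd6*, a Frizzled receptor gene, averaged 8.60 ± 0.18 in *Rsk2-/Y* and 8.79 ± 0.097 in WT (-0.19, unadjusted p = 0.017, adjusted p = 0.9998 in limma), and *Fzd9* differed by 0.19.

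Of 19 further target and feedback genes, 6 were above 0 and 13 below (median -0.037). *Ccnd1*, which encodes cyclin D1, averaged 10.9 ± 0.12 in *Rsk2-/Y* and 11.11 ± 0.13 in WT, a difference of -0.21 (standard error 0.064, unadjusted p = 0.0047, adjusted p = 0.97 in limma). *Rnf43*, the ubiquitin ligase gene that clears Frizzled from the surface, differed by -0.19 (unadjusted p = 0.036, limma). *Tnfrsf19* (Troy) differed in the other direction by 0.16 (unadjusted p = 0.0091, limma). None of the 19 was called, so the 3 values stand as unadjusted ones. Of 10 other genes whose loss or gain alters tooth number, 1 was above 0 and 9 below (median -0.040), with *Sp6* at -0.20 (standard error 0.25) and *Sostdc1*, the LRP4 partner, at -0.18 (standard error 0.24), and none passed an unadjusted p of 0.05.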

How the data were processed

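Each array measured 1 pool of mandibular molar germs (Affymetrix Mouse Gene 1.0 ST), with 150 ng of RNA labelled per the labels. The deposited values are on a log2 scale, 1 signal for each probe set, and come from RMA in Affymetrix Expression Console 1.3.1.187, per the submitters' processing notes. RMA removes background, brings the arrays to 1 distribution and summarises probes, which reduces the spread between arrays. Nothing was normalized further. The number of arrays sets the precision, since no read counts exist.

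The platform annotation gives 1 symbol to 21789 of 35556 probe sets, several to 1621 and no symbol to 12146. The 19979 with a symbol and a signal above 5 in at least 1 pool, the study's minimum, were tested with limma 3.58.1 in R 4.3.3 (two-sided, Benjamini-Hochberg over all 19979), at the study's adjusted p under 0.1 and fold change of 1.2. Where a gene had several probe sets, the one with the highest mean was used. Groups follow the labelled genotype. Exact permutation tests, correlations and figures used Python 3.11.15, NumPy 2.4.6, pandas 2.3.3, SciPy 1.17.1 and matplotlib 3.10.9. The limma test was checked on simulated data. Alternatives covered the series as a block, each series alone, each pool left out, filters, scaling, array weights and other tests. Upstream sequences came from RefSeq's promoter table and no gene coordinates were otherwise used. Named genes were all members, the 3 genes most like *Lef1*, *Axin2*, *Lrp4* and *Osr2*, and the 2 largest differences of each WNT or tooth number list, with *Tnfrsf19*, *Msx1* and *Barx1* chosen after their values were seen. The members and lists were chosen with earlier results of these data known.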

Additional observations from a re-analysis of the deposited data

Results flagged for a closer look

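Within a group of 4 or 8 pools, a value was set apart when its gap to the nearest pool took more of the group's range than Dixon's critical value allows. Of 84 groups examined over the 9 genes and 5 marker means, 7 were set apart, and chance gives about 1 in 20. *Lef1* in *Rsk2-/Y* had 9.05 in replicate 3, against 9.73 to 10.14 in the other 7 pools. The dental epithelium mean was also lowest there, at 9.54 against 9.86 to 9.99. In WT the dental epithelium mean was lowest in replicate 6, at 9.75 against 10.04 to 10.29, and among the 4 AZN pools of WT that replicate had the highest skeletal muscle mean, 8.79 against 7.86 to 7.97. *Nkd1* in the ABH pools of WT was low in replicate 3, at 9.13 against 9.39 to 9.42. *Apc* in the AZN pools of *Rsk2-/Y* was low in replicate 1, at 9.53 against 9.63 to 9.64. The enamel knot mean in the ABH pools of WT was high in replicate 1, at 8.38 against 8.19 to 8.21.

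*Apc* also differed in sign between series, since each of the 4 AZN pools of *Rsk2-/Y* lay below the mean of the AZN pools of WT and each of the 4 ABH pools lay above that of the ABH pools of WT. The difference between the 2 effects was -0.11 (standard error 0.083, adjusted p = 0.84 for the interaction in limma).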

How the results depend on the processing

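No member was called in any of 31 alternatives to the comparison of genotypes, and the lowest adjusted p of a member was 0.61 (*Lrp6*, ABH alone, limma). The count of genes called over the array was 0, and became 1 with the series as a block, 3 in ABH alone and 3 without WT replicate 6. The differences of the main fit were all near 0. They changed sign in 1 of 31 alternatives for *Ctnnb1* and *Lrp6*, and in 7 to 11 of 31 for the other genes. The cause was not tested. With the series as a block and epithelium and muscle means as covariates, *Lef1* was 0.27, past 1.2-fold. Its unadjusted p there was 0.088 and its adjusted p 0.98 (limma). In that fit *Axin2* was 0.15, *Nkd1* 0.052, *Ctnnb1* 0.048, *Apc* 0.057, *Lrp4* 0.14, *Lrp5* -0.0067 and *Osr2* 0.13. In ABH alone, *Axin2* was 0.063, *Nkd1* 0.039, *Apc* 0.051, *Lrp4* 0.049, *Lrp5* -0.011 and *Osr2* 0.069, and in AZN alone *Lef1* was 0.0047 and *Lrp6* -0.024. Without both *Rsk2-/Y* replicates 3 and 5, *Lef1* was 0.12, *Axin2* 0.057, *Nkd1* 0.051, *Lrp4* 0.023, *Lrp5* -0.0069 and *Osr2* 0.091. Array weights gave *Axin2* 0.0042, *Nkd1* 0.027, *Lrp5* -0.0085 and *Osr2* 0.033. Median-centred arrays gave *Lrp5* -8.41e-04, and a second quantile normalization gave *Apc* 0.0047. Leaving out 1 pool gave -0.099 to 0.090 for *Lef1*, -0.063 to 0.034 for *Axin2*, -0.067 to 0.034 for *Nkd1*, -0.062 to -0.0041 for *Ctnnb1*, -0.041 to 0.041 for *Apc*, -0.060 to 0.069 for *Lrp4*, -0.018 to 0.034 for *Lrp5*, 8.78e-04 to 0.067 for *Lrp6* and -0.12 to 0.0075 for *Osr2*. AZN against ABH called 2 members, 1 with array weights, and 1 to 3 with 1 pool left out (1 without *Rsk2-/Y* replicate 3 or 5, and 3 without *Rsk2-/Y* replicate 1, with *Lef1* added). AZN pools of both genotypes with the same number in their names had correlations of deviations of -0.049 (number 1) and 0.0091 (number 3). The unnumbered pools had 0.60, and whether such pools are pairs was not tested. A replicate block with the series called 0 genes and 0 members.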
